A study of Arabidopsis thaliana with 30 samples.

Results

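The 10 genes described here make, break down, sense or respond to the plant hormone abscisic acid (ABA). They were taken from the count table by locus identifier from a fixed list, and make up 10 of 38194 loci. All 10 passed the filter on low counts, which 21052 loci passed. NCED3 (AT3G14440) makes the ABA precursor, CYP707A1 (AT4G19230), CYP707A2 (AT2G29090), CYP707A3 (AT5G45340) and CYP707A4 (AT3G19270) break ABA down, ABI1 (AT4G26080), ABI2 (AT5G57050) and HAB1 (AT1G72770) are phosphatases of the signalling pathway, and RD29A (AT5G52310) and RAB18 (AT5G66400) are target genes.

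All samples were leaves 1 and 2 of 10 d old Arabidopsis thaliana seedlings of the Columbia-0 ecotype, detached, surface sterilized and shaken in a salt buffer with 5% glucose and 0.2% dimethyl sulfoxide, with 18 to 20 leaves pooled per sample. Mock leaves received this buffer alone. Stimulus leaves also received 20 µM bikinin, an inhibitor of GSK3-type kinases that switches on brassinosteroid signalling, with the synthetic auxin 2,4-D at 2.5 µg/mL and the cytokinin kinetin at 0.5 µg/mL. Both treatments were sampled at 6, 7, 8, 9 and 10 h with 3 replicates, so the 3 added compounds cannot be told apart, and every sample shares detachment, glucose and dimethyl sulfoxide. No sample was taken from intact plants among those analysed here.

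ABA is a hormone of water shortage, seed dormancy and leaf stress, and detaching and handling leaves are known to engage it. NCED enzymes cleave carotenoids in the step that usually limits its synthesis, and CYP707A enzymes hydroxylate it toward inactive products. Receptors of the PYR/PYL family that have bound ABA block clade A type 2C protein phosphatases such as ABI1, ABI2 and HAB1, which releases SnRK2 kinases to act on transcription factors. These factors bind ABA-responsive elements, with the core ACGTG, upstream of target genes, and the phosphatase and CYP707A genes are themselves known to be induced by ABA as feedback.

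The libraries held 14981271 to 22729166 counts. Among 435 pairs of columns 1 pair was identical, the mock columns of replicate 3 for 6 h and for 7 h, so 29 libraries were distinct (14 mock and 15 stimulus), and which of the 2 hours that library belongs to is not known. Replicate 3 stood apart in both treatments at every hour: plastid loci took 0.692% ± 0.115 of its counts (SD, n = 9) against 2.38% ± 0.488 in replicates 1 and 2 (n = 20), and nuclear rRNA and tRNA genes took 0.0636% ± 0.0252 against 0.48% ± 0.191. Levels are therefore given separately for replicates 1 and 2 and for replicate 3, as CPM, counts scaled to a common library size after TMM normalization. The leaf label was checked on marker genes: 5 of 5 mesophyll markers passed the filter, the guard cell markers summed to 31.9 to 48.7 CPM, and of the 6 genes on a root list WER, CASP1 and PLT1 did not pass, with no PLT1 count in any library. The other genes on the root list were present, at means of 28.5 CPM for PIP1;1, 17.7 for SCR and 5.69 for GL2. Summed mesophyll markers moved with both treatment and replicate: they came to 8430 ± 1004 CPM in mock replicates 1 and 2 (n = 10), 14880 ± 1166 in mock replicate 3 (n = 4), 5389 ± 1017 in stimulus replicates 1 and 2 (n = 10) and 6552 ± 789 in stimulus replicate 3 (n = 5). RBCS1A made up most of this sum, with a mean of 6104 CPM against 7947 for the sum over the 29 libraries. The summed root list moved likewise, at 61.7 ± 3.67 CPM, 118.5 ± 14.1, 26.3 ± 3.51 and 30.6 ± 3.07 in the same order. The 5 mesophyll markers and the 3 root list genes tested all fell with the stimulus on average, and their part in the results below was not tested. In bulk leaves, fewer cells of a type and less RNA per cell cannot be told apart.

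Averaged over the 5 hours, 5 of the 10 genes passed the test for a difference between stimulus and mock: CYP707A1, ABI1 and ABI2 rose, and CYP707A3 and CYP707A4 fell. The test was edgeR's quasi-likelihood test over all 21052 genes with Benjamini-Hochberg adjustment and a threshold of 0.05, and 56.7% of all genes passed it, 29.7% higher and 27% lower. The share among the ABA genes was thus near that of all genes, and the median log2 fold change of the 10 was 0.19 against 0.02 over all genes. Mock and stimulus libraries with the same replicate number deviated together, and differently numbered ones were not compared. A fit with the replicate number as a block was also made. It called 7 of the 10, adding NCED3 and HAB1 among the risers, where 69.2% of all genes were called. With the counts of each replicate number summed over the hours, which leaves 3 values per treatment, ABI2 alone passed among the 10 (1.02 ± 0.23, adjusted p = 0.0481), where 8.21% of all genes passed. Fitted on replicates 1 and 2 alone, all 10 passed, 7 higher and 3 lower, where 65.4% of all genes passed.

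**Figure D1:**
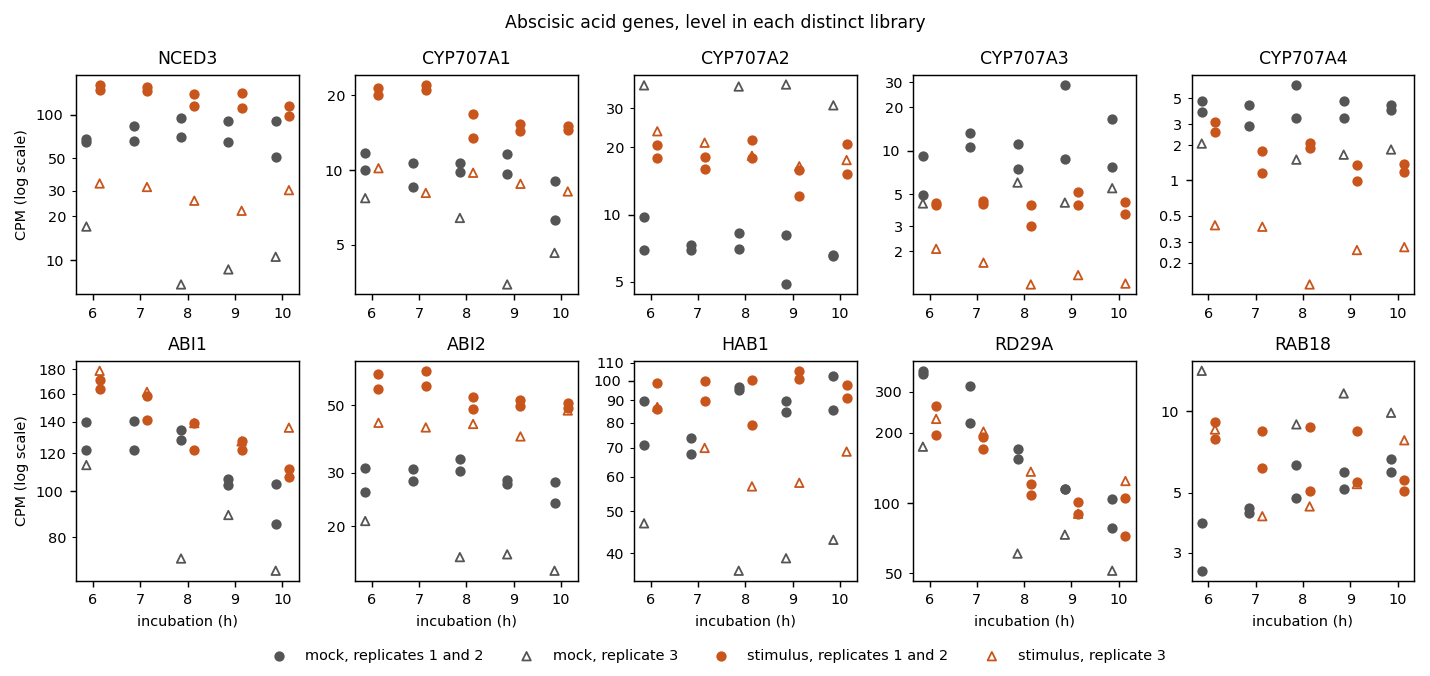
Level of each gene in the 29 distinct libraries, in CPM on a log axis, against hours of incubation. Grey symbols are mock and orange symbols stimulus, circles are replicates 1 and 2, triangles replicate 3, and the library deposited under 2 hours is drawn at 6 h. ABI2 is the gene whose stimulus points all lie above all mock points, and for CYP707A2 and RAB18 the mock triangles lie above every mock circle.

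NCED3 was the most replicate-dependent of the list in level. The gene lies on the minus strand at chr3:4831286-4834015 (TAIR10.1) and has a single exon. In replicates 1 and 2, mock libraries ran from 50.8 to 95.2 CPM with a median of 68.9, and stimulus libraries from 98.3 to 161 CPM with a median of 139.6. In replicate 3, mock libraries ran from 6.82 to 17.0 CPM and stimulus libraries from 21.9 to 33.6 CPM. The treatments did not overlap within either replicate set, but stimulus replicate 3 lay below every mock library of replicates 1 and 2. Stimulus was higher in 15 of 15 pairs of the same hour and replicate number. In this and all later pair counts, the 6 h and 7 h pairs of replicate 3 use the same mock library. The share of all genes with such counts was not computed. The average log2 fold change was 0.86 ± 0.44 (SE), which did not pass without the block (edgeR quasi-likelihood test, adjusted p = 0.0998) and passed with it at 0.96 ± 0.12 (adjusted p = 2.94e-07). In mock, replicate 3 was lower than replicates 1 and 2 by a log2 difference of -2.66 ± 0.19 (adjusted p = 3.24e-11), the largest of the 10 genes, where 65.5% of all genes differed between the sets in mock.

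The 4 CYP707A genes split into a riser, a pair that fell and a gene whose direction depended on the replicate. Their upstream sequences are shown because the riser CYP707A1 and the faller CYP707A3 share a stretch there. Each line is the 300 bases before the annotated gene start in RefSeq's TAIR10.1 assembly, read 5′ to 3′ on the gene's strand, with ACGTG on either strand in capitals. The windows are chr4:10520959-10521258 (plus strand) for CYP707A1, chr5:18371022-18371321 (minus) for CYP707A3, chr3:6676522-6676821 (minus) for CYP707A4 and chr2:12499724-12500023 (minus) for CYP707A2, and no other gene lies in them.
CYP707A1: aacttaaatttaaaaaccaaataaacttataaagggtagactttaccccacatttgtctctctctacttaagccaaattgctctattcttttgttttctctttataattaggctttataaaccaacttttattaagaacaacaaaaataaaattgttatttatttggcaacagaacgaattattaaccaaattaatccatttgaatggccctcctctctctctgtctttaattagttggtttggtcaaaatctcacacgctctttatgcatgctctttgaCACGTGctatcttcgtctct
CYP707A3: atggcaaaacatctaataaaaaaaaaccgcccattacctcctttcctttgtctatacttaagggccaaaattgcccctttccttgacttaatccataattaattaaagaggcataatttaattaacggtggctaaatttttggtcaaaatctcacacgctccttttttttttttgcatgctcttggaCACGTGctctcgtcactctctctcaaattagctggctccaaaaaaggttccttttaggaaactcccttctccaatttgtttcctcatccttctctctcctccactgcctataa
CYP707A4: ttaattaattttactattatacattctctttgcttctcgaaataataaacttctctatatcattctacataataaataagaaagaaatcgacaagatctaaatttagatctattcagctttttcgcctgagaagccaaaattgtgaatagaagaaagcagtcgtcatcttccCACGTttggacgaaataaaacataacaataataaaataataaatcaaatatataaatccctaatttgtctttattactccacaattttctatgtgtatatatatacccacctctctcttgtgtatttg
CYP707A2: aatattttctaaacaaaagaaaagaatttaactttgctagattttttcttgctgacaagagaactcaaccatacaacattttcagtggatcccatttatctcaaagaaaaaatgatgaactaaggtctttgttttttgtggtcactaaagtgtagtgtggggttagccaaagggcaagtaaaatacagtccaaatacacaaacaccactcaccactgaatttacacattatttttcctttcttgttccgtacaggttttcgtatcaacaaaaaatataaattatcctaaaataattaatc
The longest run of identical letters among the 45 pairs of the 10 genes' windows was 23 bases, between CYP707A1 and CYP707A3 (tttggtcaaaatctcacacgctc). In both it is followed by a G-box, CACGTG, a palindrome that holds ACGTG on each strand and begins 20 bases before the start of CYP707A1 and 113 bases before that of CYP707A3. The run itself begins 61 bases before the start of CYP707A1 and 162 bases before that of CYP707A3, so its distance to the G-box differs. The 50 bases ending in that G-box, at chr4:10521195-10521244 and chr5:18371129-18371178, are set one above the other here, without gaps. The CYP707A3 line therefore begins inside the run, the run is out of register between the lines, and 31 of the 50 letters match (62%).
CYP707A1: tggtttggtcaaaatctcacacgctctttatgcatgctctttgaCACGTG
CYP707A3: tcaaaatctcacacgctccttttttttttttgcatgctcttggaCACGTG
CYP707A4 holds 1 ACGTG, beginning 128 bases before its start, and none was found in the CYP707A2 window. Of 27443 such windows over all genes, 25.6% held ACGTG and 7.09% held CACGTG on either strand. ACGTG was held by 6 of the 10 genes (CYP707A1, CYP707A3, CYP707A4, ABI1, HAB1 and RAB18). The brassinosteroid response element, CGTGTG or CGTGCG, was held by 4 (CYP707A1, CYP707A3, RD29A and RAB18) and by 7.64% of all windows. In CYP707A1 and CYP707A3 it lies within the shared run as CACACG, beginning 47 and 148 bases before the start. The auxin response element TGTCTC was held by CYP707A1 alone and by 13% of all windows. A match of letters does not show that a factor binds.

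CYP707A1 (chr4:10521259-10523961, plus strand) rose. Mock libraries of replicates 1 and 2 ran from 6.32 to 11.8 CPM with a median of 9.94, and stimulus libraries from 13.4 to 22.1 CPM with a median of 16.2. Replicate 3 had mock values from 3.46 to 7.71 CPM and stimulus from 8.10 to 10.2 CPM. The treatments did not overlap within either replicate set, and stimulus was higher in 15 of 15 pairs. The average log2 fold change was 0.77 ± 0.18 (edgeR, adjusted p = 0.00101). It was 0.82 ± 0.10 in replicates 1 and 2 and 0.60 ± 0.15 in replicate 3, and the difference of -0.21 ± 0.18 did not pass (adjusted p = 0.351).

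CYP707A3 (chr5:18368532-18371021, minus strand) moved the other way. In replicates 1 and 2, mock libraries ran from 4.94 to 28.8 CPM with a median of 9.94, and stimulus libraries from 3.01 to 5.2 CPM with a median of 4.26. Mock replicate 3 lay between 4.31 and 6.01 CPM and its stimulus counterpart ran from 1.18 to 2.08 CPM. Stimulus was lower in 15 of 15 pairs, although the highest stimulus library of replicates 1 and 2 lay above the lowest mock library of the same set. The average log2 fold change was -1.48 ± 0.30 (edgeR, adjusted p = 0.000187), and the values by set, -1.44 ± 0.19 and -1.74 ± 0.34, did not differ past the threshold (adjusted p = 0.554). The highest value, 28.8 CPM, was 1 mock library, replicate 1 at 9 h. Without that library the fold change at 9 h went from -1.97 to -0.88 and no longer passed (adjusted p = 0.414), as it also did without any of 10 other single libraries at adjusted p from 0.0501, while the average was -1.27 and still passed.

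CYP707A4 (chr3:6673689-6676521, minus strand) was the least abundant of the 10 genes and also fell. Mock libraries of replicates 1 and 2 ran from 2.93 to 6.52 CPM with a median of 4.16, and stimulus libraries from 0.993 to 3.11 CPM with a median of 1.57. In replicate 3, mock ran from 1.5 to 2.06 CPM and stimulus from 0.131 to 0.417 CPM, which stood for 2 to 8 counts per library. The treatments overlapped in replicates 1 and 2 and not in replicate 3, and stimulus was lower in 15 of 15 pairs. The average log2 fold change was -1.50 ± 0.35 (edgeR, adjusted p = 0.000857). It was -1.34 ± 0.14 in replicates 1 and 2 and -2.60 ± 0.30 in replicate 3, a difference of -1.26 ± 0.34 that passed (adjusted p = 0.00338).

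CYP707A2 (chr2:12494826-12499723, minus strand), known for ABA breakdown in imbibed seeds, had opposite directions in the replicate sets. In replicates 1 and 2, mock libraries ran from 4.86 to 9.78 CPM with a median of 6.97, and stimulus libraries from 12.1 to 21.7 CPM with a median of 17.9. Replicate 3 had mock values from 30.9 to 38.3 CPM and stimulus from 16.5 to 23.6 CPM. Stimulus was higher in 10 of 10 pairs of replicates 1 and 2 and lower in 5 of 5 pairs of replicate 3, with no overlap within either set. Those 5 pairs rest on 4 distinct mock libraries. The sets were far apart in mock, at 7.22 ± 1.3 CPM (SD, n = 10) against 36.2 ± 3.53 (n = 4), while their stimulus values overlapped, at 17.6 ± 2.92 (n = 10) and 19.4 ± 2.90 (n = 5). The log2 fold change was 1.28 ± 0.09 in replicates 1 and 2 and -0.92 ± 0.12 in replicate 3. Their difference of -2.20 ± 0.15 (edgeR, adjusted p = 7.6e-11) was the largest in size of the 10 genes. The average over all libraries, 0.10 ± 0.35, did not pass (adjusted p = 0.822) and lies between 2 opposite values. It was 0.53 ± 0.25 with the block (adjusted p = 0.0589), and with 1 library left out it ran from 0.01, without mock replicate 2 at 9 h, to 0.38, without mock replicate 3 at 9 h.

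Compared per kilobase of exon, the order of the levels depended on the replicate set. In mock replicates 1 and 2 (n = 10) the means ran RD29A (75.2 ± 41.4 CPM per kilobase, SD), ABI1 (54.7 ± 8.48), HAB1 (30.6 ± 4.14), NCED3 (27.2 ± 5.31), ABI2 (12.6 ± 1.20), CYP707A3 (5.81 ± 3.33), CYP707A1 (4.64 ± 0.754), RAB18 (4.59 ± 1.17), CYP707A2 (3.10 ± 0.559) and CYP707A4 (2.41 ± 0.577). Neighbours in this order differed by more than their SDs together from ABI1 to HAB1, from NCED3 to ABI2 and from ABI2 to CYP707A3, and not elsewhere. In mock replicate 3 (n = 4) the order was ABI1 (39.5 ± 9.50), RD29A (33.8 ± 21.4), CYP707A2 (15.5 ± 1.52), HAB1 (14.8 ± 1.64), RAB18 (10.25 ± 2.09), ABI2 (7.35 ± 1.23), NCED3 (3.94 ± 1.63), CYP707A1 (2.63 ± 0.889), CYP707A3 (2.47 ± 0.414) and CYP707A4 (1.01 ± 0.136). There the neighbours differed by more than their SDs from HAB1 to RAB18, from ABI2 to NCED3 and from CYP707A3 to CYP707A4. CYP707A2 was thus the highest CYP707A gene in mock replicate 3 and below CYP707A3 and CYP707A1 in mock replicates 1 and 2. In stimulus, CYP707A1 (8.24 ± 1.60 in replicates 1 and 2, 4.26 ± 0.440 in replicate 3) and CYP707A2 (7.56 ± 1.25 and 8.32 ± 1.25) lay above CYP707A3 (2.06 ± 0.277 and 0.734 ± 0.187) and CYP707A4 (0.997 ± 0.391 and 0.169 ± 0.0675) by more than the SDs in both sets.

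Among the phosphatases, ABI2 rose in both replicate sets. It lies on the plus strand at chr5:23087122-23089631. Mock libraries ran from 23.8 to 33.2 CPM in replicates 1 and 2 (median 28.3) and from 14.3 to 20.8 CPM in replicate 3. Stimulus libraries ran from 48.8 to 65.0 CPM in replicates 1 and 2 (median 52.8) and from 39.5 to 48.1 CPM in replicate 3. Every stimulus library lay above every mock library, a separation found for ABI2 alone among the 10 genes and for 7.68% of all genes. The average log2 fold change was 1.02 ± 0.12 (edgeR, adjusted p = 2.52e-07). It passed at each hour, at 1.07, 1.05, 0.87, 0.97 and 1.16 for 6 to 10 h. Without both copies of the duplicated mock library the values at 6 h and 7 h, 0.94 and 0.92, did not pass (adjusted p = 0.0692 and 0.0525). Leaving out 1 library also ended the call at single hours: at 6 h mock replicates 1 and 3 and stimulus replicate 2, at 7 h mock replicate 3, at 8 h mock replicate 3 and each stimulus library, and at 9 h mock replicate 3 and stimulus replicate 2, with adjusted p from 0.0509 to 0.153. Replicate 3 gave 1.31 ± 0.09 and replicates 1 and 2 gave 0.92 ± 0.06, a difference of 0.39 ± 0.11 that passed (adjusted p = 0.0042).

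ABI1, the closest relative of ABI2, rose by less. ABI1 lies on the minus strand at chr4:13219915-13222376 and overlaps the gene MEK1 on the other strand by 22 bases. Mock libraries of replicates 1 and 2 ran from 85.2 to 140 CPM (median 122) and stimulus libraries from 107 to 171 CPM (median 133). For replicate 3, mock ran from 68.1 to 113 CPM and stimulus from 127 to 179 CPM. The treatments overlapped in replicates 1 and 2, where stimulus was higher in 9 of 10 pairs, and not in replicate 3, where it was higher in 5 of 5. The average log2 fold change was 0.36 ± 0.08 (edgeR, adjusted p = 0.000636). It was 0.20 ± 0.06 in replicates 1 and 2 and 0.71 ± 0.09 in replicate 3, and the difference of 0.52 ± 0.11 passed (adjusted p = 0.000365).

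HAB1 (chr1:27389948-27393327, plus strand) had its clearest difference in replicate 3. In replicates 1 and 2, mock libraries ran from 67.7 to 102 CPM (median 87.7) and stimulus libraries from 79.0 to 105 CPM (median 98.0). Replicate 3 had mock values from 36.5 to 46.9 CPM and stimulus from 57.1 to 86.9 CPM, with no overlap. The average of 0.27 ± 0.16 did not pass without the block (edgeR, adjusted p = 0.162) and passed with it at 0.32 ± 0.09 (adjusted p = 0.00227). By set it was 0.15 ± 0.08 (adjusted p = 0.096) and 0.67 ± 0.12 (adjusted p = 1.8e-05), a difference of 0.52 ± 0.14 that passed (adjusted p = 0.00391). For each of the 3 phosphatases the fold change was thus larger in replicate 3, and each had a lower mock level there, by log2 differences of -0.39 ± 0.08 for ABI1, -0.72 ± 0.08 for ABI2 and -1.0 ± 0.10 for HAB1.

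The target gene RD29A encodes a hydrophilic stress protein induced by drought, cold and ABA, and its upstream region is the textbook case of the dehydration-responsive element, read by DREB factors. The 300 bases before the gene start, at chr5:21240417-21240716 (plus strand), are shown with ACCGAC and GCCGAC in capitals, on either strand, and ACGTG likewise.
RD29A: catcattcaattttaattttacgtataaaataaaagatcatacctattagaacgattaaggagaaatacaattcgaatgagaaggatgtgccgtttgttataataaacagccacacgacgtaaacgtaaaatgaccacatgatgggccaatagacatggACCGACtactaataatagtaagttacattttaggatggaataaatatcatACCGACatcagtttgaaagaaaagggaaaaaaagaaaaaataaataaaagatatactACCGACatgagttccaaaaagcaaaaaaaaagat
The element occurs 3 times, beginning 141, 91 and 34 bases before the start, while 8.24% of all windows held it at least once and none of the other 9 genes did. ACGTG does not occur in this window, and sequence outside the window was not searched.

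RD29A declined over the hours in both treatments. In mock replicates 1 and 2 the values were 360 and 369 CPM after 6 h, then 317 and 221, 155 and 170, 115 and 115, and 104 and 78.1 in the next 4 hours. In stimulus replicates 1 and 2 they were 262 and 197 CPM after 6 h, then 171 and 191, 121 and 108, 102 and 89.6, and 105 and 72.5. In replicate 3, mock went from 175 CPM in the library deposited for 6 h and 7 h to 60.8, 73.2 and 51.3 at 8, 9 and 10 h, and stimulus read 230, 203, 136, 90.0 and 124 from 6 to 10 h. The linear trend was -0.51 ± 0.08 per hour in mock (log2, edgeR, adjusted p = 0.00123) and -0.34 ± 0.07 per hour in stimulus (adjusted p = 0.0253). RD29A was the only one of the 10 genes with a trend past the threshold, where 0.722% of all genes had one in mock and 1.02% in stimulus. The block, with which 3.83% of all genes had a trend in mock and 6.37% in stimulus, added ABI1 in both treatments, at -0.14 ± 0.04 per hour in mock (adjusted p = 0.0292) and -0.14 ± 0.04 in stimulus (adjusted p = 0.0277). Neither RD29A trend passed without the 6 h or without the 10 h libraries, and the stimulus trend did not pass without 1 of stimulus replicates 1 and 3 at 6 h or of stimulus replicates 1 and 2 at 10 h (adjusted p from 0.0619 to 0.138).

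The stimulus effect on RD29A was opposite in the replicate sets. It was lower in stimulus in 9 of 10 pairs of replicates 1 and 2 and higher in 5 of 5 pairs of replicate 3. The log2 fold change was -0.41 ± 0.09 in replicates 1 and 2 and 0.66 ± 0.13 in replicate 3, a difference of 1.07 ± 0.16 that passed (edgeR, adjusted p = 8.89e-06). The average, -0.11 ± 0.15, did not pass (adjusted p = 0.551). In mock, replicate 3 lay at 90.0 ± 57.1 CPM (SD over hours, n = 4) against 200.3 ± 110 (n = 10), while stimulus values overlapped at 157 ± 57.8 (n = 5) and 142 ± 60.3 (n = 10).

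RAB18, a dehydrin commonly used as an ABA reporter, had the reverse pattern of RD29A. It lies on the minus strand at chr5:26518277-26519447 and overlaps PLP3b on the other strand by 11 bases. PLP3b also reaches into the 300 bases upstream of RAB18. This upstream window holds ACGTG 3 times, more than any other of the 10 genes' windows if the palindrome is counted once. The 25 bases around each are shown with the core in capitals, which in the last one reads CACGT because the core is on the other strand. They lie at chr5:26519596-26519620, chr5:26519544-26519568 and chr5:26519451-26519475, and the cores begin 163, 111 and 18 bases before the start. The first core overlaps a brassinosteroid response element, CGTGTG, that begins 162 bases before the start.
RAB18 site 1: acgacgatgtACGTGtgtatgaaaa
RAB18 site 2: gaggagcattACGTGtcctgttagc
RAB18 site 3: ttgatatgaaCACGTacttggtatc
In replicates 1 and 2, mock libraries ran from 2.58 to 6.68 CPM (median 4.97) and stimulus libraries from 5.07 to 9.13 CPM (median 7.05). In replicate 3, mock ran from 8.96 to 14.1 CPM and stimulus from 4.10 to 8.57 CPM. The treatments overlapped in replicates 1 and 2, with stimulus higher in 7 of 10 pairs, and did not overlap in replicate 3, with stimulus lower in 5 of 5. The log2 fold change was 0.50 ± 0.16 in replicates 1 and 2 and -0.99 ± 0.23 in replicate 3, a difference of -1.48 ± 0.28 (edgeR, adjusted p = 0.00012). The average of -0.12 ± 0.23 did not pass (adjusted p = 0.68), and its sign depended on the duplicated mock library: without both copies it was 0.26. The average stimulus effects on RD29A and RAB18 thus had opposite signs within each replicate set.

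**Figure D2:**
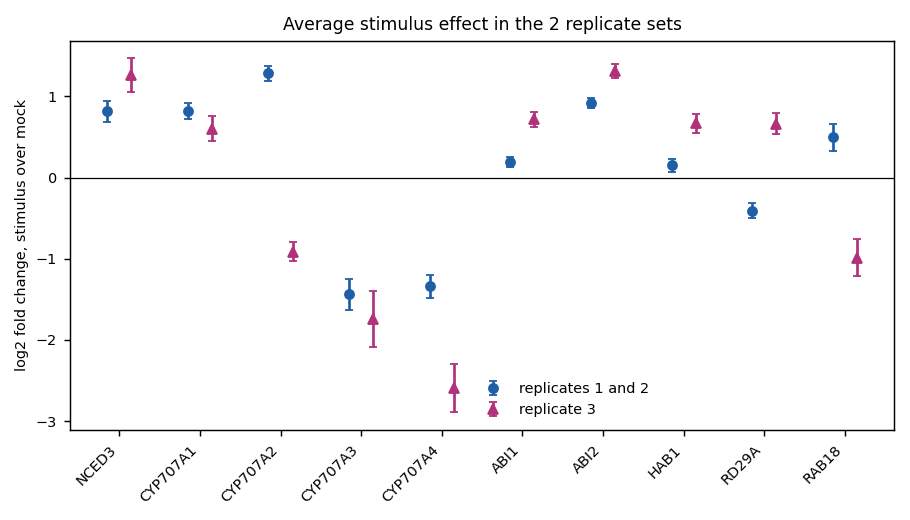
Average stimulus effect (log2 fold change over mock, with its standard error) of each gene in replicates 1 and 2 (blue circles) and in replicate 3 (magenta triangles), from 1 model over all 30 libraries. NCED3, CYP707A1 and the 3 phosphatases lie above 0 and CYP707A3 and CYP707A4 below 0 in both sets, and CYP707A2, RD29A and RAB18 lie on opposite sides.

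Taking the 10 genes together, the stimulus effect differed between replicate 3 and replicates 1 and 2 for 7 genes, 4 with a higher and 3 with a lower value in replicate 3, where 49.2% of all genes differed, 23.5% higher and 25.8% lower. NCED3, CYP707A1 and CYP707A3 did not pass, and the NCED3 difference of 0.45 ± 0.24 (edgeR, adjusted p = 0.13) became 0.91 and passed without both copies of the duplicated library (adjusted p = 0.00229), and also without its 6 h copy alone (adjusted p = 0.0279). The CYP707A1 difference passed without mock replicate 3 at 9 h (adjusted p = 0.0497). In mock, all 10 genes differed between the sets, 2 higher in replicate 3 (CYP707A2 and RAB18) and 8 lower, with a median log2 difference of -0.81 against -0.02 over all genes, of which 33% were higher and 32.5% lower. The mock levels of the sets did not overlap for 6 of the 10, where 35.6% of all genes did not overlap. Within each set, the stimulus effect passed for 9 of the 10 in replicates 1 and 2 (all but HAB1), where 64.4% of all genes passed, and for 10 in replicate 3, where 67.8% passed. Within replicates 1 and 2, treatments did not overlap for 4 genes (NCED3, CYP707A1, CYP707A2 and ABI2), where 19.6% of all genes did not overlap. Within replicate 3 they did not overlap for 9 genes, all but RD29A, where 52.9% of all genes did not. These tests take the 5 hours of a replicate number as separate libraries, so their p-values do not measure the spread between independent sets of plants.

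**Figure D3:**
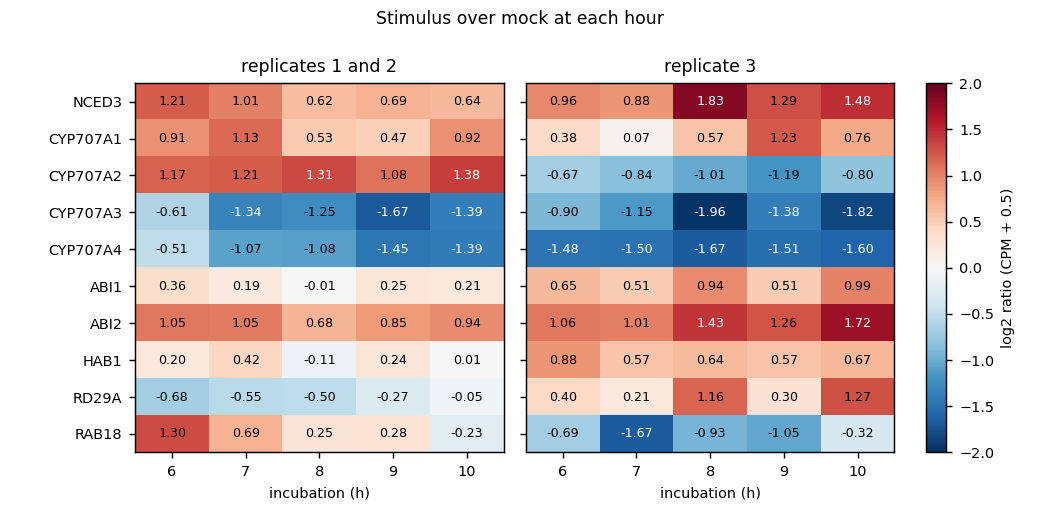
Log2 ratio of stimulus to mock (difference of the mean log2 of CPM plus 0.5) at each hour, for replicates 1 and 2 on the left and replicate 3 on the right, red for higher and blue for lower in stimulus. The 7 h column of replicate 3 uses the library deposited under both 6 h and 7 h, and CYP707A2 is red at every hour on the left and blue at every hour on the right.

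By single hours, 6 of the 50 gene and hour combinations passed: ABI2 at every hour, and CYP707A3 at 9 h (-1.97 ± 0.66, edgeR, adjusted p = 0.0433). Over all genes 9.87%, 17%, 12.9%, 16.5% and 19.1% passed at 6, 7, 8, 9 and 10 h. With the block 25 of the 50 passed, where 30.4%, 37.9%, 33.1%, 37.1% and 39.5% of all genes passed at these hours. NCED3, CYP707A1 and ABI2 were then higher at each of the 5 hours, CYP707A3 and CYP707A4 lower at 7, 8, 9 and 10 h, and ABI1 higher at 6 and 10 h. In replicates 1 and 2 the RAB18 ratio read 1.3, 0.69, 0.25, 0.28 and -0.23 (log2) from 6 to 10 h, and the RD29A ratio -0.68, -0.55, -0.50, -0.27 and -0.05. The CYP707A4 ratio in the same libraries read -0.51, -1.07, -1.08, -1.45 and -1.39. No gene of the 10 passed the test for a difference of hourly trends between treatments, which 0.019% of all genes passed with edgeR, and at an unadjusted p under 0.05 the count among the 10 was 0 with edgeR, where 5.1% of all genes were under it, and 0 with DESeq2, where 4.16% were. The test for any interaction of treatment and hour called 0 of 21052 genes, 0% of them, with edgeR, and DESeq2's likelihood ratio test called 15. At an unadjusted p under 0.05, 336 genes (1.6%) passed with edgeR and 454 (1.46%) with DESeq2, with 0 of the 10 in either. These shares are lower than the threshold itself would give with no effect, so the 0 calls do not show that interaction is absent. Fitted on replicates 1 and 2 alone, the difference of trends passed for RAB18, at -0.39 ± 0.09 per hour (adjusted p = 0.0102), where 7.71% of all genes passed. NCED3, CYP707A4 and RD29A had unadjusted p of 0.02715, 0.01375 and 0.0277 in that edgeR fit. They did not pass after adjustment (adjusted p from 0.109 to 0.166), and the share of all genes under 0.05 unadjusted was not counted there. RAB18 climbed in those mock libraries by 0.24 ± 0.06 per hour (adjusted p = 0.0126), from 2.58 and 3.87 CPM at 6 h to 6.68 and 5.98 CPM at 10 h. In the same fit ABI1 and RD29A fell with the hours in mock, where 22.8% of all genes had a trend, and CYP707A1, CYP707A4, ABI1, ABI2 and RD29A fell in stimulus, where 16.6% did.

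The wider pathway was described by 67 further genes, of which 54 passed the filter. On average 12 of the 54 rose and 19 fell, where 29.7% of all genes rose and 27% fell, so the number called was near the share of all genes (56.7%). The median was -0.19 against 0.02 over all genes. The counts by role below are to be read against the same shares. Among synthesis genes, 3 of the 6 tested rose and 3 fell. NCED5, a paralogue of NCED3, rose by 4.72 ± 0.21 (log2, edgeR, adjusted p = 3.52e-14), from 0.0752 to 1.33 CPM in mock to 8.58 to 22.9 CPM in stimulus. ABA4, which acts in making the neoxanthin precursor, fell by 0.97 ± 0.13 on the log2 scale.

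Of 14 receptor genes 9 were tested, 6 fell, none rose, where 27% of all genes fell and 29.7% rose, and the median log2 fold change was -0.63. PYL5 went from 0.435 to 3.48 CPM in mock to 0 to 0.298 CPM in stimulus (-3.24 ± 0.48, adjusted p = 5.7e-06), and PYL3 changed by -1.34 ± 0.52 (adjusted p = 0.0332) at a mean of 0.373 CPM, a call lost with any of 8 single libraries left out (adjusted p from 0.05004 to 0.0839). The 6 receptors that fell did so in the comparison in which the 5 mesophyll markers fell, while PYR1 (-0.12, adjusted p = 0.267), PYL7 and PYL8 did not pass. PYL8 was still lower in stimulus without overlap within each set. It ran from 14.6 to 19.3 CPM in mock and from 8.47 to 13.8 in stimulus in replicates 1 and 2. In replicate 3 it ran from 47.1 to 56.7 CPM in mock and from 28.8 to 39.0 in stimulus. In mock replicate 3, where the summed mesophyll markers were high, 6 of the 9 receptors were higher than in replicates 1 and 2 and 1 was lower. The median log2 difference was 1.01, where 33% of all genes were higher and 32.5% lower. Whether these move for a shared reason was not tested.

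Of the 4 other clade A phosphatases tested (HAB2, AHG3, HAI1 and HAI2) none passed on average, with a median of 0.04. HAB2 had opposite directions in the replicate sets, without overlap within either. It ran from 42.2 to 47.5 CPM in mock and from 36.4 to 40.9 in stimulus in replicates 1 and 2. In replicate 3 it ran from 31.7 to 33.9 CPM in mock and from 35.0 to 40.7 in stimulus. HAI1, a strongly ABA-induced phosphatase, had 0.40 in replicates 1 and 2 and 2.52 in replicate 3 (log2), a difference of 2.12 that passed (edgeR, adjusted p = 5.79e-05). Of the 11 kinases and transcription regulators tested, 2 rose and 2 fell. AFP3, a repressor of ABI5-type factors, rose by 1.51 ± 0.17, and the kinase SNRK2.3 fell by 0.51 ± 0.10 on the log2 scale.

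Conjugation and transport genes gave 3 that rose and 4 that fell among 8 tested. ABCG40, an ABA importer of the plasma membrane, ran from 0.794 to 8.09 CPM in mock and from 7.44 to 279 CPM in stimulus (3.96 ± 0.56, edgeR, adjusted p = 3.08e-06). UGT71B6, which conjugates glucose to ABA, rose by 1.52 ± 0.25. BGLU18, a glucosidase that releases ABA from that conjugate, changed by -2.45 ± 0.60 (adjusted p = 0.00131). In replicates 1 and 2 it ran from 572 to 1992 CPM in mock and from 125 to 591 CPM in stimulus, so its treatments overlapped there. In replicate 3 it ran from 146 to 289 CPM in mock and from 8.20 to 17.7 CPM in stimulus, without overlap.

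Of the 16 other ABA and dehydration targets tested, 4 rose and 4 fell, where 29.7% and 27% of all genes did. GOLS2, which makes galactinol, rose by 3.94 ± 0.41 (edgeR, adjusted p = 3.96e-08), and RD20, a caleosin, changed by -1.45 ± 0.12 (adjusted p = 6.6e-10). Between the replicate sets, 18 of the 54 genes had a higher stimulus effect in replicate 3 and 16 a lower one, where 23.5% and 25.8% of all genes did. RD29B, the neighbour and paralogue of RD29A, differed by 2.93 ± 0.57 (adjusted p = 0.000168). Its level in mock replicate 3 was 0.0501 ± 0.0340 CPM (n = 4) with a lowest value of 0, so the size of its difference is uncertain. ABCG40 differed by 4.64 ± 0.75 and EM6 by 2.31 ± 0.67. The EM6 difference was 1.44 without both copies of the duplicated library and did not pass (adjusted p = 0.176). COR15A and COR15B, chloroplast proteins of cold acclimation, differed by -2.59 ± 0.18 and by -2.27 ± 0.29. PYL3, also called, had no count in the 5 stimulus libraries of replicate 3 and 0.155 ± 0.0700 CPM in mock replicate 3 (n = 4), so no size is given.

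**Figure D4:**
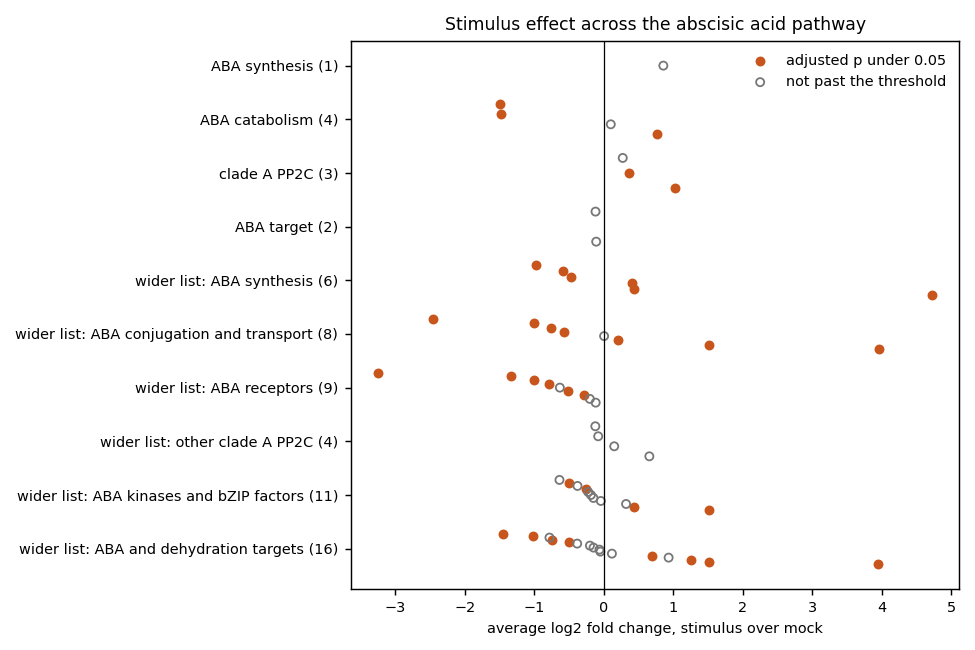
Average log2 fold change of stimulus over mock for the 10 genes (upper 4 rows) and the 54 tested genes of the wider list (lower 6 rows), by role, with the number tested in brackets. Filled points passed an adjusted p of 0.05 and open points did not, and all filled receptor points lie below 0.

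The genes whose responses were most like those of 4 of the 10 genes were found among 17637 genes as the smallest root mean square difference over 10 log2 ratios, those of the 5 hours in each replicate set. ABI2 was nearest to NCED3 at 0.198, then AT1G78830 at 0.214 and AT5G07800 at 0.24. For ABI1 they were RAN-1 (0.133), AT3G48860 (0.137) and AT2G18840 (0.141). For CYP707A2 the nearest were RTFL17 at 0.295, PUB26 at 0.32 and AT1G31690 at 0.352, and for RD29A they were PNC2 at 0.251, AT4G30650 at 0.281 and AT2G44500 at 0.301. The 10 ratios share the same libraries and the same duplicated column, so the distance is a description.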

How the data were processed

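RNA was sequenced from ribosome-depleted stranded libraries of 30 leaf samples in 10 groups of 3, per the labels' protocols. The authors deposited raw counts per locus, per the file headers. BWA and the TAIR10 build stand in the submitters' processing notes, while no source used here names the counting tool or its strand setting. Coordinates and sequences are from RefSeq's TAIR10.1, whose name differs from that build. The files hold no coordinates. Genes were matched by locus tag (37751 of 38194).

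The test was that of edgeR 4.0.16, run in R 4.3.3 (TMM, filterByExpr, quasi-likelihood, Benjamini-Hochberg over 21052 genes, threshold 0.05), with 1 mean per group over all 30 libraries. The comparison of replicate sets adds a term for replicate 3 and a term for replicate 3 in stimulus. Levels are CPM computed here, SDs count the duplicated library once, and the fits and the pair counts use all 30 columns. Standard errors come from the fold change and its F statistic. After subtracting group means, same-numbered mock and stimulus libraries had correlations over 0.1 in 15 of 15 pairs (0.182 to 0.526). Differently numbered libraries were not compared. Replicate 3 stood apart in every group, so these correlations cannot decide whether the other numbers pair mock with stimulus libraries. The numbers served as pairs in the pair counts and as the replicate block, and the main fit had no block. The sample titles call the replicates biological. Nothing in the labels says whether they came from separate plant batches, so the p-values may not measure the spread between batches. Scripts were tested on simulated data. Alternatives included DESeq2 1.42.0.

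All 10 genes are named. From the wider list the 4 largest changes past the threshold each way and 3 largest set differences each way are named by rule, and ABA4, HAI1, AFP3 and SNRK2.3 were added after their values were seen. Members, lists, the split by replicate and tests were chosen with earlier results of these data known. A 5 h time is named by the submitters and was not analysed here.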

Additional observations from a re-analysis of the deposited data

Results flagged for a closer look

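The stimulus effect on 7 of the 10 genes differed between replicate 3 and replicates 1 and 2 by a test of the difference itself (edgeR quasi-likelihood test, adjusted over 21052 genes, of which 49.2% also differed). The differences, replicate 3 minus replicates 1 and 2 on the log2 scale, were -2.20 for CYP707A2, -1.26 for CYP707A4 and -1.48 for RAB18. They were 0.52 for ABI1, 0.39 for ABI2, 0.52 for HAB1 and 1.07 for RD29A. For CYP707A2, RD29A and RAB18 the sets had opposite signs, and for the other 4 the effect had 1 sign and a larger size in replicate 3. Replicate 3 also differed in the share of plastid counts and in summed mesophyll markers, and the part of either in these differences was not tested.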

How the results depend on the processing

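Counts below are genes past an adjusted p of 0.05 among the 10, or combinations among 50 for single hours. The average effect was called for 5, for 10 in replicates 1 and 2 only and for 1 with counts summed over hours, and the mock trend was called for 1, against 2 with the replicate block, 2 with DESeq2, 3 in replicates 1 and 2, and 0 without the 6 h or the 10 h libraries. The stimulus trend was called for 1, against 2 with the replicate block, 2 with DESeq2, 5 in replicates 1 and 2, and 0 without the 6 h or the 10 h libraries. The difference of trends was called for 0 and in replicates 1 and 2 for 1. Single hours gave 6, against 25 with the replicate block, 34 in replicates 1 and 2 and 2 with only the 6 libraries of each hour. Leaving out 1 library at a time gave 5 for the average, 7 to 8 for the difference between sets, 10 for the mock level, 0 for the difference of trends and the interaction, 1 to 2 for the mock trend, 0 to 2 for the stimulus trend and 4 to 7 for single hours. The RAB18 average of -0.12 turned to 0.26 without both identical columns and to 0.52 in replicates 1 and 2 only, and ranged from -0.20 to 0.10 with 1 library left out. With summed counts CYP707A1, CYP707A3, CYP707A4 and ABI1 kept their direction at adjusted p of 0.179, 0.124, 0.216 and 0.217. The cause of these changes was not tested, beyond the fewer libraries or values that each leaves. Low counts limit CYP707A4 in stimulus replicate 3 (2 to 8 counts).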
